A study of Sus scrofa with 6 samples.

Results

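The genes described here are those of the pig major histocompatibility complex (MHC) and its immediate partners: SLA-DRA and SLA-DQA1, the alpha chains of 2 class II molecules, CD74, the invariant chain that escorts class II molecules, and B2M, beta-2 microglobulin, the light chain of class I molecules. They were chosen by name: every probe of the array that was not a control and whose design identifier was a pig RefSeq transcript of SLA-1, SLA-DRA, SLA-DQA1, CD74 or B2M was taken. SLA-1, a classical class I heavy chain, had no such probe and was left out. The other 4 genes had 18 probes, 7 for SLA-DRA, 7 for SLA-DQA1, 2 for CD74 and 2 for B2M, out of 43380 probes and 2384 named genes in all. Class II was therefore read through 16 probes and class I through the 2 probes of B2M alone. The pig table of RefSeq genes holds a second locus under the symbol B2M, and the probes may read both.

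RNA was taken ex vivo from the femoral artery of pigs (Sus scrofa) at the puncture site and hybridised, labelled with Cy3, to 6 Agilent 1-colour arrays. In 3 samples the vessel was treated with the vascular glue TAG and in 3 with Exoseal, a commercial vascular closure device. The labels name 1 puncture side for all samples, give no strain, age or time after closure, hold no untreated artery, and leave unsaid whether replicates came from separate animals. The p-values therefore measure no more than the spread between these 6 samples, some or all of which may be technical. Groups follow the sample titles. The title of Exoseal replicate 1 gives Exoseal and its treatment characteristic gives TAG. The file headers give Exoseal replicate 1 the scan date of the 3 TAG arrays, and give Exoseal replicates 2 and 3 another. Arrays that share a scan date were taken to share a slide, and the former are called slide 1 and the latter slide 2. Results are therefore also given within slide 1, where the 3 TAG arrays stand against Exoseal replicate 1 alone.

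Class I molecules pair a heavy chain with beta-2 microglobulin, sit on nearly all nucleated cells and show peptides from inside the cell to CD8+ T cells. Class II molecules pair an alpha with a beta chain and show peptides from engulfed material to CD4+ T cells. They are carried mainly by macrophages, dendritic cells and B cells, and in pigs also by vascular endothelium. CD74 fills the class II groove until the molecule reaches the compartment where peptides are loaded, and interferon-gamma raises the transcription of both classes.

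The arrays differed in brightness. Between 34.7% and 41.2% of probes were well above background on the TAG arrays and between 60.6% and 70.8% on the Exoseal arrays. The 75th percentile of the processed signal, to which each array was scaled, was 19.3 to 36.4 in TAG and 61.0 to 151 in Exoseal. The mean net signal of the negative control spots was between 18.0 and 30.9 on slide 1, against 1.82 and 1.63 for the arrays of slide 2. Across probes (not independent of each other), Pearson's r was 0.945 to 0.958 within TAG and 0.936 between Exoseal replicates 2 and 3. Exoseal replicate 1 had 0.791 and 0.854 with the other Exoseal arrays and 0.830 to 0.853 with the TAG arrays. Levels below are log2 of the processed signal minus that array's 75th percentile, so a difference of 1 is a 2-fold change. Levels of different probes cannot be set against each other, because probes differ in brightness for reasons other than abundance. Probes of a gene are numbered from the brightest.

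None of the 18 probes passed the test between TAG and Exoseal. Limma called 0 of 18 at an adjusted p under 0.05, where 10.8% of all 22722 tested probes were called (2443 probes, 1604 higher and 839 lower in TAG). At an unadjusted p under 0.05 there were 2 of 18, SLA-DRA probe 7 and B2M probe 2, against 31.0% of all probes. The groups did not overlap for 5 of 18 probes, where 36.4% of all probes had groups that did not overlap. The median difference of the 18 probes was 0.28, with 10 higher and 8 lower in TAG, beside a median of 0.08 over all probes. Within slide 1 the median was -0.18, with 12 of 18 lower in TAG, beside -0.09 over all probes. All 18 probes passed the filter on dim probes, and 17 were well above background on all 6 arrays. The 95% interval of the difference included 0 for 16 of 18 probes. For each of these 16 it also reached past a 2-fold change in at least 1 direction, so a failed test does not show equal levels. Without Exoseal replicate 1 the count of called probes rose to 6 of 18, described below, where 34.0% of all probes were called. Leaving out any other array left 0 of all probes past the threshold.

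**Figure D1:**
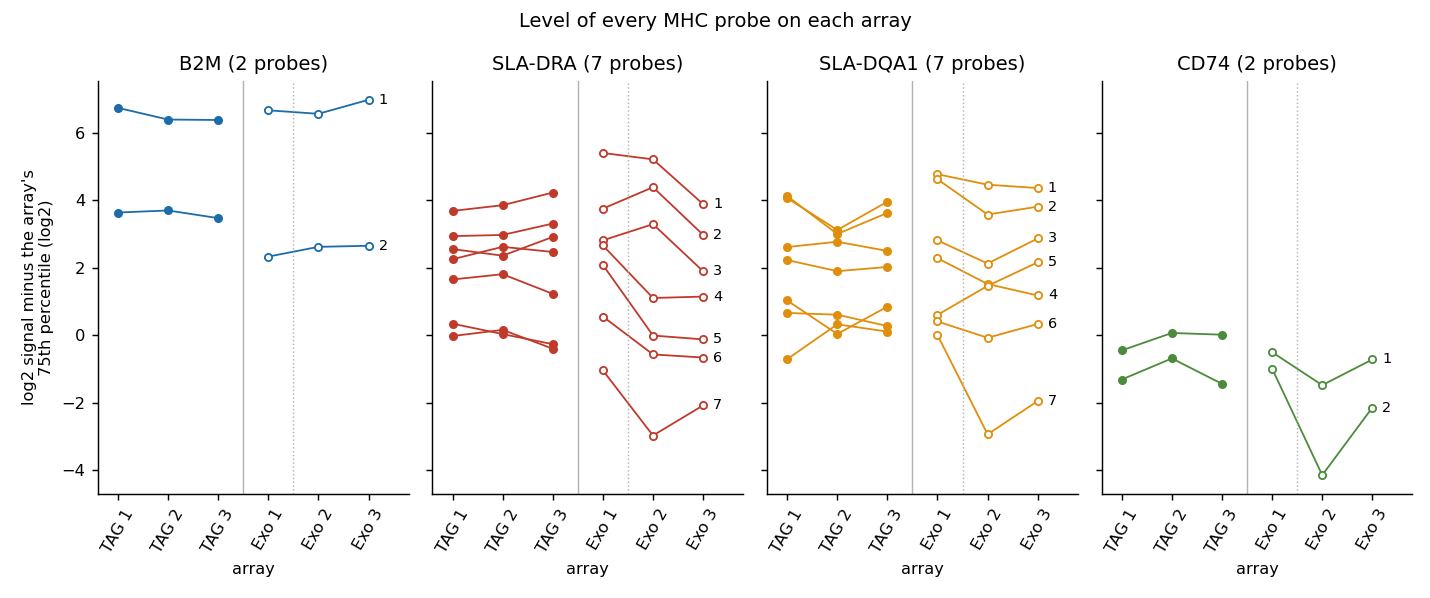
Level of each of the 18 probes on each array, in log2 units relative to the 75th percentile of the array (y axis), for TAG (filled) and Exoseal (open), with 1 panel per gene and probes numbered from the brightest. Lines join the values of 1 probe and carry no order; the dotted line parts slide 1 from slide 2, and the probes of SLA-DRA lie further apart on the Exoseal arrays than on the TAG arrays.

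The light chain of class I gave different answers in its 2 probes. B2M probe 1 (A_72_P441589) was the brightest of the 18, with processed signals of 3903, 2169 and 1611 on TAG replicates 1 to 3 and of 6970, 14309 and 7720 on Exoseal replicates 1 to 3. Scaled to each array, its levels were 6.75, 6.40 and 6.39 in TAG and 6.67, 6.57 and 6.98 in Exoseal. The scaled ranges overlap, and the larger raw signals of the Exoseal arrays went with their larger 75th percentiles. The difference was -0.23 ± 0.41 (SE, n = 3 arrays per group; 95% interval -1.15 to 0.68; adjusted p = 0.742 in limma), and -0.16 within slide 1. This value depends on the scaling: with quantile scaling it was -0.998 and in the authors' deposited table -1.01, neither past the threshold.

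B2M probe 2 (A_72_P709927) lay higher in TAG. Its levels were 3.64, 3.70 and 3.47 on the TAG arrays and 2.33, 2.62 and 2.65 on the Exoseal arrays. The groups did not overlap and each was tight, with an SD of 0.12 in TAG and 0.18 in Exoseal. The difference was 1.07 ± 0.40 (95% interval 0.17 to 1.97; adjusted p = 0.107 in limma; exact two-sided permutation p = 0.1, the smallest that 3 against 3 arrays allow). Within slide 1 it was 1.27, and leaving out any 1 array left it between 0.97 and 1.13. Normexp background correction followed by 75th-percentile scaling reduced it to 0.11.

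With normexp background correction and quantile scaling both B2M probes passed, in opposite directions. Probe 1 had -1.03 ± 0.16 (adjusted p = 0.0270 in limma) and probe 2 0.92 ± 0.11 (0.0182). At that setting 2 of 18 probes were called, where 7.05% of all probes were called. No direction for B2M as a gene can be read from 2 probes that disagree.

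SLA-DRA, the alpha chain of the DR molecule, was bright on its first probe and showed no shared direction over its 7 probes. Probe 1 (A_72_P176171) had processed signals of 469, 373 and 362 on the TAG arrays and of 2900, 5611 and 904 on the Exoseal arrays. Its levels were 3.69, 3.86 and 4.23 in TAG and 5.41, 5.22 and 3.89 in Exoseal. Exoseal replicates 1 and 2 lay above all TAG arrays, and Exoseal replicate 3 lay among them. The difference was -0.91 ± 0.51 (95% interval -2.06 to 0.24; adjusted p = 0.260 in limma; exact p = 0.2), and -1.48 within slide 1, with an adjusted p of 0.138 with slide as a block over 6 arrays.

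SLA-DRA probe 2 (A_72_P683574) also had Exoseal replicate 3 lowest within its group. Its levels were 2.94, 2.98 and 3.31 in TAG and 3.76, 4.39 and 2.98 in Exoseal, a difference of -0.63 (adjusted p = 0.407 in limma) and of -0.68 within slide 1. Probe 3 (A_72_P652871) had 2.56, 2.36 and 2.92 in TAG and 2.82, 3.30 and 1.90 in Exoseal. The TAG arrays of probe 3 lay inside the Exoseal range, and its difference of -0.06 (0.948) changed sign under 4 of the 6 other scalings and background corrections, where it stayed within 0.02 to 0.10.

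The 4 dimmer SLA-DRA probes had higher means in TAG. Probe 4 (A_72_P640825) had levels of 2.25, 2.62 and 2.47 in TAG and of 2.66, 1.11 and 1.15 in Exoseal. Probe 5 (A_72_P571544) had 1.65, 1.81 and 1.23 in TAG and 2.09, -0.01 and -0.12 in Exoseal. In both, Exoseal replicate 1 was the highest of the 6 arrays and Exoseal replicates 2 and 3 were the lowest. Their differences of 0.81 (adjusted p = 0.324 in limma) and 0.91 (0.354) became -0.22 and -0.52 within slide 1. Probe 6 (A_72_P610249) had 0.34, 0.04 and -0.26 in TAG and 0.56, -0.57 and -0.66 in Exoseal, again with Exoseal replicate 1 on top. Its difference of 0.26 (0.753) became -0.52 within slide 1 and -0.20 with median scaling.

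SLA-DRA probe 7 (A_72_P561324) came nearest to the threshold of the 18. Its levels were -0.02, 0.16 and -0.40 on the TAG arrays and -1.04, -2.97 and -2.08 on the Exoseal arrays, so that the groups did not overlap. The difference was 1.94 ± 0.55 (95% interval 0.71 to 3.18; adjusted p = 0.0520 in limma; exact p = 0.1), and 0.95 within slide 1. Its processed signals were low, 35.8, 28.7 and 14.6 in TAG and 33.2, 19.2 and 14.4 in Exoseal, and overlapped between the groups. The higher scaled level in TAG went with the lower 75th percentile of the TAG arrays.

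SLA-DQA1, the alpha chain of the DQ molecule, was likewise lower in TAG by its brighter probes and higher by its dimmest. Probe 1 (A_72_P244477) had processed signals of 636, 206 and 239 in TAG and of 1874, 3332 and 1258 in Exoseal. Its levels were 4.13, 3.0 and 3.63 in TAG and 4.78, 4.47 and 4.37 in Exoseal, and all 3 Exoseal arrays lay above all TAG arrays. The difference was -0.95 ± 0.45 (95% interval -1.97 to 0.07; adjusted p = 0.189 in limma; exact p = 0.1), and -1.19 within slide 1. With normexp and 75th-percentile scaling it was -1.53 (adjusted p = 0.0434) and was the 1 of 18 probes called, where 4.71% of all probes were called.

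Probe 2 of SLA-DQA1 (A_72_P721473) had levels of 4.07, 3.12 and 3.96 in TAG and of 4.63, 3.58 and 3.81 in Exoseal, which overlap. Probe 3 (A_72_P746609) had 2.23, 1.90 and 2.03 in TAG and 2.81, 2.13 and 2.87 in Exoseal. Their differences were -0.29 (adjusted p = 0.728 in limma) and -0.55 (0.415), and within slide 1 -0.91 and -0.76. TAG replicate 2 was the lowest array for each of the 3 brightest SLA-DQA1 probes.

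Probe 4 of SLA-DQA1 (A_72_P720353) went the other way, with groups that did not overlap. Its levels were 2.62, 2.77 and 2.5 in TAG and 2.28, 1.52 and 1.18 in Exoseal, a difference of 0.97 ± 0.45 (95% interval -0.04 to 1.98; adjusted p = 0.178 in limma; exact p = 0.1) and of 0.35 within slide 1. Probe 5 (A_72_P750437) had 1.03, 0.04 and 0.85 in TAG and 0.60, 1.47 and 2.16 in Exoseal. Here Exoseal replicate 1 lay inside the TAG range, and the difference of -0.77 (0.358) was 0.04 within slide 1.

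The 2 dimmest SLA-DQA1 probes overlapped between the groups. Probe 6 (A_72_P712598) had levels of 0.66, 0.61 and 0.27 in TAG and of 0.41, -0.07 and 0.33 in Exoseal, a difference of 0.29 (adjusted p = 0.674 in limma) that became -0.17 with median scaling. Probe 7 (A_72_P763148) had -0.71, 0.33 and 0.11 in TAG and 0.01, -2.94 and -1.95 in Exoseal. The low values of Exoseal replicates 2 and 3 made up its difference of 1.53 ± 0.72 (0.182), which was -0.10 within slide 1.

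CD74, the invariant chain, was dim on both of its probes and had higher means in TAG. Probe 1 (A_72_P796773) had processed signals of 26.6, 27.0 and 19.5 in TAG and of 48.3, 54.1 and 37.1 in Exoseal. Its levels were -0.45, 0.07 and 0.02 in TAG and -0.50, -1.48 and -0.72 in Exoseal. The groups did not overlap, though TAG replicate 1 and Exoseal replicate 1 nearly met, and the raw signals had the opposite order. The difference was 0.78 ± 0.45 (adjusted p = 0.274 in limma; exact p = 0.1), and 0.38 within slide 1.

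CD74 probe 2 (A_72_P223292) had levels of -1.31, -0.69 and -1.44 in TAG and of -0.99, -4.15 and -2.14 in Exoseal. It was not well above background on TAG replicate 3. The groups overlapped through Exoseal replicate 1, and the difference of 1.28 ± 0.74 (adjusted p = 0.272 in limma) was -0.16 within slide 1.

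Summarised to 1 value per gene, none of the 4 genes passed. As the mean of its probes SLA-DRA had 0.33 ± 0.47 (adjusted p = 0.677 in limma), SLA-DQA1 0.03 ± 0.42 (0.967), CD74 1.03 ± 0.57 (0.258) and B2M 0.42 ± 0.40 (0.524). By the brightest probe SLA-DRA, SLA-DQA1 and B2M were below 0. The sign for these 3 genes thus depended on whether the mean or the brightest probe stood for the gene, and for CD74 it did not.

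Probes of a gene differed along their brightness. For SLA-DRA the difference between groups was 2.86 higher at the dimmest than at the brightest probe, for SLA-DQA1 2.48, for B2M 1.30 and for CD74 0.50. All 4 genes thus had the higher TAG value at the dimmer end. Over the 732 named genes with at least 2 tested probes the same quantity had a median of 0.44 and was above 0 for 63.9%. Over the 134 genes with at least 5 it had a median of 0.58 and was above 0 for 64.2%. The range between the probes of a gene was 2.86 in SLA-DRA and 2.48 in SLA-DQA1, beside a median of 2.18 over those 134 genes. Within slide 1 the range was 2.44 and 1.54, beside 2.35. Disagreement between probes was thus common on these arrays. Its cause was not tested.

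**Figure D2:**
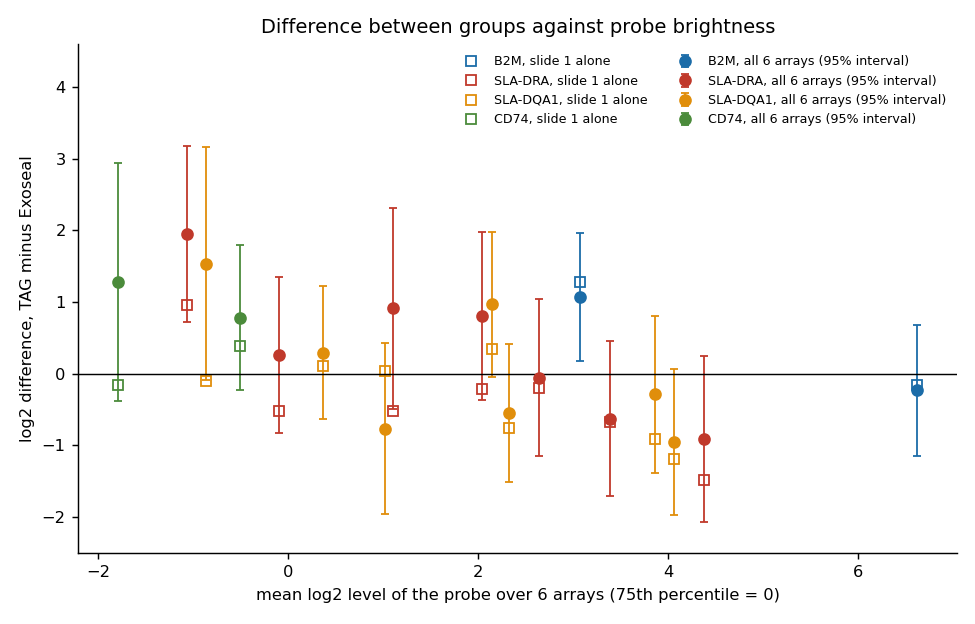
Difference between TAG and Exoseal (log2, y axis) of each of the 18 probes against the probe's mean level over 6 arrays (x axis). Filled points with bars are the fit over 6 arrays with its 95% interval and open squares the values within slide 1; the brightest SLA-DRA and SLA-DQA1 probes lie below 0 and the dimmest above it over 6 arrays.

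The same quantity can be set out array by array, where scaling cancels. For each gene the group difference of this span is the value above with its sign changed, and not a further result. The log2 signal of the brightest minus the dimmest SLA-DRA probe was 3.71, 3.70 and 4.63 on TAG replicates 1 to 3, and 6.45, 8.19 and 5.97 on Exoseal replicates 1 to 3. All Exoseal arrays, including the one on the TAG slide, had the wider span (-2.86 for TAG minus Exoseal; exact permutation p = 0.1). For SLA-DQA1 the span was 4.84, 2.68 and 3.52 in TAG and 4.77, 7.40 and 6.32 in Exoseal, and Exoseal replicate 1 lay below TAG replicate 1 (-2.48; exact p = 0.2). For B2M it was 3.10, 2.70 and 2.91 in TAG and 4.34, 3.95 and 4.33 in Exoseal, without overlap (-1.30; exact p = 0.1). That of CD74 overlapped, at 0.86, 0.76 and 1.46 in TAG and 0.49, 2.67 and 1.43 in Exoseal (exact p = 0.7). The span of all tested probes, from the 10th to the 90th percentile, was 6.01, 6.48 and 6.24 in TAG and 5.59, 7.33 and 6.72 in Exoseal, which overlap (-0.30; exact p = 0.6). These 5 tests belong to 1 family, and no p of 0.1 would pass after adjustment.

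**Figure D3:**
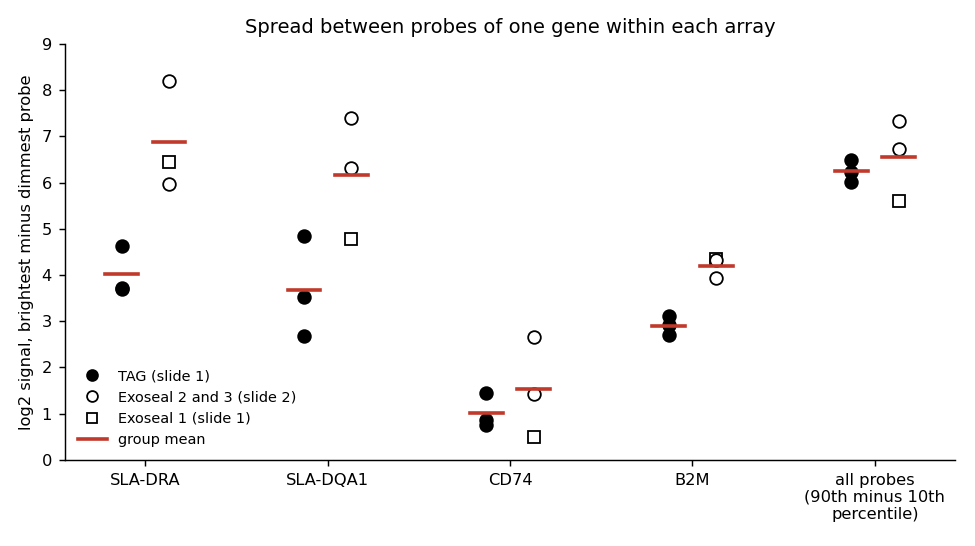
Log2 signal of the brightest minus the dimmest probe of each gene within each array (y axis), with the 90th minus the 10th percentile of all tested probes at the right. Points are arrays and bars group means; for SLA-DRA and B2M all 3 Exoseal arrays lie above all 3 TAG arrays.

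Class II against class I depended on which B2M probe stood for class I. The contrast was the mean log2 signal of the 16 class II probes minus that of the 2 B2M probes on each array, set to 0 at the mean of the Exoseal arrays. It was -0.25, -0.15 and 0.00 on the TAG arrays and 0.73, -0.32 and -0.42 on the Exoseal arrays. The TAG arrays lay between Exoseal replicate 1 and the other 2 Exoseal arrays. The difference of the means was -0.13, with an SD of 0.12 in TAG and 0.64 in Exoseal. It was smaller than the spread between the Exoseal arrays, and its sign turned with quantile scaling (0.16), in the authors' deposited table (0.15) and with normexp under quantile (0.09) or 75th-percentile scaling (0.25). Within slide 1 it was -0.86.

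Against the brighter B2M probe alone, all class II probes had 0.30, 0.61 and 0.65 on the TAG arrays and 0.67, -0.19 and -0.48 on the Exoseal arrays, a difference of 0.52. Against the dimmer B2M probe they had -0.80, -0.90 and -0.65 in TAG and 0.80, -0.45 and -0.35 in Exoseal, a difference of -0.78 with groups that did not overlap. The choice of B2M probe therefore turned the sign of class II against class I. Within slide 1 both were negative, at -0.14 and -1.58.

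With the brightest probe of each gene, the contrast of class II with class I depended on the gene and on the scaling. SLA-DRA minus B2M was -1.15, -0.64 and -0.25 on the TAG arrays and 0.64, 0.55 and -1.19 on the Exoseal arrays, a difference of -0.68, and -1.32 within slide 1. SLA-DQA1 minus B2M was -0.41, -1.19 and -0.55 in TAG and 0.31, 0.10 and -0.41 in Exoseal, a difference of -0.72, and -1.03 within slide 1. In the first contrast Exoseal replicate 3 was the lowest of all arrays, and in the second it met TAG replicate 1, so the groups overlapped in both. With normexp and quantile scaling the SLA-DRA and SLA-DQA1 contrasts were 0.03 and 0.29, and with quantile scaling -0.07 and 0.02, so neither kept its direction. CD74 minus B2M was 1.01, above 0, and 1.01 to 1.64 under the other scalings and background corrections. Its groups overlapped too, since TAG replicate 1 lay below Exoseal replicate 1. Within slide 1 the CD74 probe had 0.38 and the B2M probe -0.16. The difference of 0.78 in CD74 probe 1 was below the 1.07 of B2M probe 2, so against that B2M probe the sign turned. The 2 alpha chains against each other, SLA-DRA minus SLA-DQA1, differed by 0.04 between the groups. That difference was far below the SD of 0.69 in TAG and 0.68 in Exoseal.

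Calls among these probes, like those among all probes, changed with the handling of the array with 2 treatment labels. Exoseal replicate 1 lay above both other Exoseal arrays for 12 of 18 probes, 5 of 7 for SLA-DRA, 5 of 7 for SLA-DQA1, 2 of 2 for CD74 and 0 of 2 for B2M. It lay inside the range of the TAG arrays for 6 of 18, and Exoseal replicates 2 and 3 both lay below all TAG arrays for 9 of 18. Over all tested probes the 3 shares were 43.7%, 24.1% and 33.0%. Without it, 6 of 18 probes were called, all higher in TAG: SLA-DRA probes 4, 5 and 7 (1.32, 1.63 and 2.44), SLA-DQA1 probes 4 and 7 (1.28 and 2.35) and CD74 probe 2 (2.00). Adjusted p-values in limma were 0.00117 for SLA-DRA probe 7 and up to 0.0373 for the others. None of the 3 brightest probes of SLA-DRA or SLA-DQA1 was among them, and 34.0% of all probes were called there. Counted as TAG, as its treatment characteristic says, it gave 4 of 18 calls, SLA-DRA probes 5 and 7 (1.76 and 2.20), SLA-DQA1 probe 7 (2.38) and CD74 probe 2 (2.04), all higher in TAG, where 16.6% of all probes were called. In these 2 fits every array of the TAG arm lay on slide 1 and every array of the Exoseal arm on slide 2. Treatment and slide cannot be told apart in them. With slide as a block 0 of 18 were called, where 9.05% of all probes were, and within slide 1 0 of 18, where 12.7% of all probes were. In the fit within slide 1 the Exoseal arm is 1 array, the TAG arrays alone give the spread, and the lone array is assumed to vary as they do. Leaving out Exoseal replicates 2 and 3 thus gave lower class II values in TAG for 11 of the 16 class II probes, and leaving out Exoseal replicate 1 gave the calls above.

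Other choices of processing called at most 2 of the 18 probes. SLA-DRA probe 7 was the 1 probe called with quantile scaling (1.64, adjusted p = 0.0402 in limma; 13.9% of all probes called), in the authors' deposited table (1.63, 0.0366; 12.8%) and among probes well above background on all 6 arrays (1.94, 0.0304; 16.4%).

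**Figure D4:**
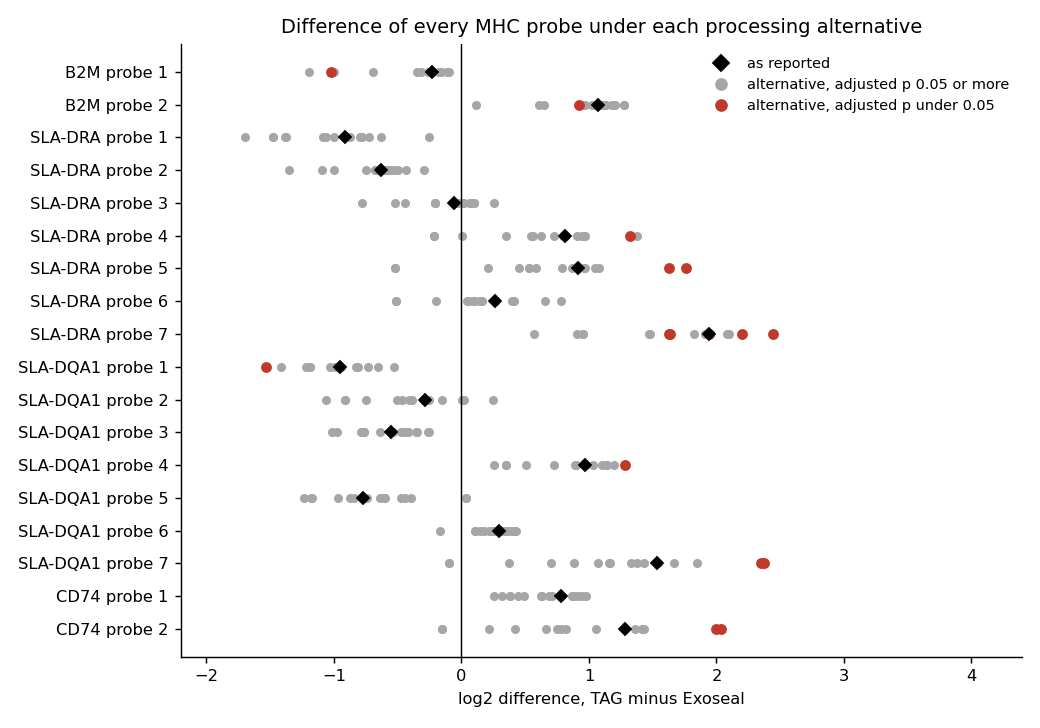
Difference between TAG and Exoseal (log2, x axis) of each of the 18 probes as reported (diamonds) and under each processing alternative, left-out array and slide setting (points, red where the adjusted p was under 0.05). The calls lie above 0 for all probes but B2M probe 1 and SLA-DQA1 probe 1, whose 1 call each lies below 0.

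The list of class I heavy chains and peptide loading genes, which holds the 2 B2M probes, had 3 of 26 tested probes called, all higher in TAG, from 2 of its 10 tested genes. That is 11.5% of its probes, close to the 10.8% over all probes. The list's median difference was 1.03 (0.48 within slide 1), beside 0.08 over all probes. Under other scalings 0 to 7 of its probes were called, and its median stayed between 0.31 and 1.16. The 7 calls, with normexp and quantile scaling, were 6 higher and 1 lower in TAG, the lower one being B2M probe 1. SLA-3, a classical class I heavy chain, had 2 of 7 probes called. The brighter (A_72_P515992) had levels of 4.61, 3.85 and 4.78 in TAG and of 1.41, 2.09 and 2.94 in Exoseal, a difference of 2.26 ± 0.52 (adjusted p = 0.0335 in limma). It was 3.0 within slide 1, and 1.80 with median scaling, which did not pass (0.113). With slide as a block its call was kept (adjusted p = 0.0124). The other (A_72_P683231) had 2.29 ± 0.62 (0.0472), and 1.04 within slide 1. Its call was lost with slide as a block (adjusted p = 0.287) and with median scaling (1.83, 0.0640), and it had 0.98 with normexp and quantile scaling (0.0476). Of the other 5 probes of SLA-3, 4 were higher in TAG by 1.22 to 2.46 without passing, and 1 was lower, at -0.61. Class I heavy chain genes are close copies of each other, and which of them each probe binds was not tested. PSMB8, a subunit of the immunoproteasome that cuts peptides for class I, had 1 of 3 probes called (A_72_P444948), at 2.10 ± 0.44 (0.0290). This probe was above background on 2 of 3 arrays in each group. Its call was kept with slide as a block (adjusted p = 0.0266). It was lost with normexp and quantile scaling (0.28, 0.263) and with median scaling (1.64, 0.0987).

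Under the 6 other scalings and background corrections 6 of the 7 SLA-3 probes had higher means in TAG at each, and 0 to 4 of them were called. Among other class I heavy chains all probes of SLA-8 (3) and SLA-5 (2) had higher means in TAG, from 0.76 to 1.38, and none passed. They had higher means at each of those 6 settings too, and none was called. SLA-8 fell to -0.53 at its lowest probe within slide 1 and SLA-5 to -0.27.

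The list of class II chains and peptide loading genes, which holds the 16 class II probes above, had 0 of 34 tested probes called higher and 1 called lower. Its median was 0.28, and -0.21 within slide 1, beside 0.08 and -0.09 over all probes. SLA-DRB1, the beta chain that pairs with SLA-DRA, had 4 of 4 probes higher in TAG by 1.05 to 2.10, and the smallest adjusted p was 0.0519 in limma. Within slide 1 these 4 stayed above 0, from 0.28 to 0.91, and they were above 0 at each of the 6 other scalings and background corrections, where 0 or 1 of them was called. The DR beta chain thus had higher means in TAG by all its probes, while the DR alpha chain was not; the difference between the 2 genes was not tested. SLA-DQB1, the beta chain that pairs with SLA-DQA1, had 2 of 4 higher, with differences from -0.47 to 1.32. The chains of DM, which exchanges the CD74 fragment for peptide, had -0.31 (SLA-DMA) and -0.38 (SLA-DMB). The chains of DO, which restrains DM, had -0.52 and -0.29 in the probes of SLA-DOA and 2.15 (adjusted p = 0.0684) in SLA-DOB. With normexp and 75th-percentile scaling the SLA-DOA probes had 0.07 and 0.14, above 0. SLA-DOB had 0.74 within slide 1 and 0.36 with normexp and quantile scaling, and was called with quantile scaling (1.72) and in the authors' deposited table (1.54).

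IFI30, a thiol reductase of the class II loading compartment, was the class II pathway gene with a called probe. Its probe A_72_P402933 had levels of 1.09, 1.48 and 1.03 in TAG and of 2.73, 4.56 and 3.91 in Exoseal, a difference of -2.53 ± 0.53 (adjusted p = 0.0290 in limma) and of -1.53 within slide 1. With slide as a block it did not pass (0.101). Its other probe had 0.33 (0.735), and -0.14 with median scaling and -0.80 within slide 1. Over 6 arrays, as in SLA-DRA and SLA-DQA1, the brighter probe was lower and the dimmer one higher in TAG.

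In the list of lipid presentation and costimulation 1 of 5 tested probes was called, that of CD86, a ligand by which presenting cells costimulate T cells. CD86 fell by 1.92 ± 0.52 in TAG (adjusted p = 0.0473 in limma) and was well above background on 1 of 3 TAG arrays. It had -2.91 within slide 1. Its call was kept with slide as a block (adjusted p = 0.0101) and with median scaling (-2.38, 0.0394). With normexp and quantile scaling the call was lost (-0.78, 0.110). In the list of interferon-gamma signalling 3 of 20 tested probes were called, 2 higher and 1 lower, or 15.0% beside 10.8% of all probes, with a median of 0.55 (-0.02 within slide 1). CXCL10, an interferon-induced chemokine, fell by 1.90 ± 0.48 (0.0403), and its other probe had -1.66 (0.0970). With slide as a block the CXCL10 call was lost (0.0711). JAK1, a kinase of interferon receptors, rose by 2.15 ± 0.41 (0.0245) and 2.33 ± 0.43 (0.0239) in 2 of its 5 probes, while 2 others had -1.09 and -0.42 and the fifth 2.34 (0.0570). The brightest probes of JAK1, too, were those that were lower in TAG. With median scaling neither JAK1 probe passed (1.69 and 1.87).

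Markers of the cells that carry class II molecules were measured on the same arrays. Of 13 tested probes of 7 macrophage and monocyte genes (15 in the list), 0 rose and 3 fell in TAG, 2 of LYZ (lysozyme) and 1 of AIF1, where 3.69% of all probes were called lower. All 3 were also called with slide as a block. For 1 of the 7 genes no TAG array was well above background. The mean level of the list was -0.10 to 0.15 on TAG arrays and 0.41 to 1.04 in Exoseal, where replicate 1 had 0.99. The mean of the list moved in the direction of the brightest SLA-DRA and SLA-DQA1 probes, but its probes did not all do so. Under the 6 other scalings and background corrections 3 to 6 of the 13 had higher means in TAG. The brightest probe of C1QA, a gene of this list, was higher in TAG without overlap. Centred on its own mean it had 0.16, 0.64 and 0.22 in TAG and 0.03, -0.99 and -0.07 in Exoseal. The part of the list in the MHC values was not tested. In a piece of tissue, fewer cells of a type and less RNA per cell cannot be told apart. Of the dendritic cell list 2 genes were tested and 0 probes called, and for 1 of them no TAG array was well above background. Of 8 B cell and plasma cell genes, 2 were on the array under a name and 0 passed the filter. Of 6 probes of 4 T and NK cell genes 0 were called, and for 2 of the genes no TAG array was well above background. With slide as a block 1 probe of the dendritic cell list and 1 of the T and NK cell list were called. The mean level of the T and NK cell list was -1.67 to -1.40 in TAG and -1.89 to -0.29 in Exoseal, highest on Exoseal replicate 1.

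Markers of the artery wall moved as well. Of 11 tested probes of 4 smooth muscle genes 8 were called, all higher in TAG, from 3 genes (ACTA2, DES and CNN1), where 7.06% of all probes were called higher. With slide as a block 2 of them were called, both of ACTA2, and with median scaling 2 were called. The uncalled probes of CNN1 and DES had 0.73 and 0.07, and -0.35 and -0.06 with normexp and quantile scaling. The gene without a call was lower in TAG, at -1.55 with normexp and quantile scaling and -1.83 with median scaling. The list's mean level was 4.02 to 4.63 in TAG and 2.36 to 3.07 in Exoseal. Of 5 tested probes of 3 endothelial genes 2 were called higher (1 each of PECAM1 and NOS3, at 2.40 and 3.01) and 1 lower (CDH5, at -2.47). The other probes of PECAM1 and NOS3 had -1.57 and -0.52, and with slide as a block 0 of the 5 were called. For the endothelial list the mean level was 0.27 to 0.82 in TAG and 0.27 to 0.58 in Exoseal. Among skeletal muscle genes 3 of 52 probes were called higher, all of ACTA1. That is 5.77%, below the 7.06% over all probes, and the list's median difference was -0.17. The 16 tested probes of ACTA1 did not share a direction, with differences from -1.94 to 2.48. Among adipocyte genes 1 of 10 probes was called lower, a probe of LEP for which no TAG array was well above background. What part these lists have in the MHC values was not tested.

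The genes whose brightest probe ran most like that of each MHC gene over the 6 arrays were found by the root mean square difference of levels centred on their own mean, among 1618 named genes. For SLA-DRA they were CDS1 (0.193), an enzyme of phospholipid synthesis, LGALS8 (0.214), a galectin, and CYBA (0.222), a subunit of the phagocyte oxidase. For SLA-DQA1 they were CCL20 (0.122), a chemokine, AIMP1 (0.167), a partner of tRNA synthetases, and DKK3 (0.183), a secreted dickkopf protein. For B2M they were GNG12 (0.0858), a G protein gamma subunit, BLOC1S3 (0.158), which serves the making of lysosome-related organelles, and ITGA2B (0.163), the platelet integrin alpha chain. For CD74 they included RPS3 (0.112), a ribosomal protein, and C1QA (0.147), a chain of complement C1q. The MHC genes were not each other's nearest: between SLA-DRA and SLA-DQA1 the value was 0.557, with SLA-DQA1 at rank 128 for SLA-DRA and SLA-DRA at rank 225 for SLA-DQA1. The value was 0.734 between B2M and SLA-DRA, 0.482 between B2M and SLA-DQA1 and 1.05 between CD74 and SLA-DRA.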

How the data were processed

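The scanner files deposited for each array give intensity values per spot from Agilent Feature Extraction 11.0.1.1, per the submitters' processing notes. The processed signal in them is an intensity that the software had background-subtracted within each array, per the file headers, and arrays were not yet scaled to each other. The authors' deposited value table, used as an alternative, has log2 values, judged from their range, and all columns share nearly the same median. How the authors normalised it is not given in the sources used. No spot was saturated. Genome build and probe sequences were not used here.

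Outlier and control spots were left out, spots of a probe were averaged, and each array's 75th percentile was subtracted from its log2 processed signals. Probes were named through RefSeq accessions matched to a table of pig genes (5435 of 43380 probes). Probes well above background on at least 3 of 6 arrays (22722) were fitted on all 6 arrays in limma (version 3.58.1, under R 4.3.3; lmFit, then eBayes, TAG minus Exoseal, two-sided, Benjamini-Hochberg over all probes, threshold 0.05). The fit was tested on simulated data. Exact permutation tests over arrays were run for single values. The files used here have median and not mean spot signals, so normexp (offset 50) took the median signal and median background. A slide was taken as the arrays that share a scan date in the file headers. The other settings were scaling, the dim-probe filter, probe summary, outlier spots, slide, the replicate number as a block, the label of Exoseal replicate 1 and each array left out.

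The members and lists were chosen with earlier results of these data known. All 18 probes are given. Of the pathway lists the genes with a probe past the threshold are named with their values, and of the marker lists the counts and the genes past the threshold. The other SLA genes are all given as a family. The 3 genes nearest to each MHC gene were taken by root mean square difference, and 1 of them is not reported here. With 3 arrays a group, their number limits all values. The description field of the samples speaks of another kind of experiment and was not used.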

Additional observations from a re-analysis of the deposited data

How the results depend on the processing

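Of 341 values of single MHC probes under the alternatives, 300 kept their direction and their side of the threshold, 16 became calls in the same direction and 25 changed sign. These counts do not measure how stable the directions are. The dim-probe filters and the replicate block leave each difference as it was, so no sign could change there. Slide as a block and the fit within slide 1 give the same differences and are both counted. Over all probes, 2443 calls became 1602 with normexp and quantile scaling, 1071 with normexp and 75th-percentile scaling, 1049 with median scaling, 3781 with Exoseal replicate 1 counted as TAG, 0 without the dim-probe filter (14128 of 43380 at an unadjusted p under 0.05 in limma) and 0 with the replicate block (6381). With 1 array left out the calls ran from 0 to 7717, the latter without Exoseal replicate 1. Among the 18 MHC probes the calls were 2, 1, 1, 1, 1 and 4 with normexp and quantile scaling, normexp and 75th-percentile scaling, quantile scaling, the authors' deposited table, the filter on all 6 arrays and Exoseal replicate 1 counted as TAG, and 0 to 6 with 1 array left out. The share of all calls that were higher in TAG was 65.7%, and became 15.9% with normexp and 75th-percentile scaling (170 higher, 901 lower), 46.9% with median scaling (492 and 557), 51.7% with quantile scaling and 55.6% with slide as a block. The median difference of all probes, 0.08, moved to -0.39 with median scaling, 0.21 with the percentile over probes above background everywhere and 0.18 with normexp and 75th-percentile scaling.

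Class II minus class I moved from -0.13 to -0.86 within slide 1 and to 0.45 with Exoseal replicate 1 counted as TAG, and ran from -0.34 to 0.24 with 1 array left out. SLA-DRA probe 3 turned to 0.018 with normexp and quantile scaling, 0.076 with the percentile over probes above background everywhere, 0.10 with quantile scaling, 0.10 in the authors' table and 0.065 with Exoseal replicate 1 counted as TAG, and ran from -0.44 to 0.25 with 1 array left out. SLA-DQA1 probe 2 turned to 0.25 with Exoseal replicate 1 counted as TAG and ran from -0.50 to 0.020. With median scaling SLA-DRA probe 6 had -0.20 and SLA-DQA1 probe 6 -0.17. With slide as a block, whose estimate equals that within slide 1, SLA-DRA probes 4, 5 and 6 had -0.22, -0.52 and -0.52, SLA-DQA1 probes 5 and 7 had 0.036 and -0.10 and CD74 probe 2 had -0.16. The cause of these changes was not tested. Samples with the same replicate number did not deviate together (correlations of -0.18, 0.09 and -0.07). The Exoseal arrays were split over the slides and the TAG arrays were not, so these correlations cannot show whether the numbers pair samples. The replicate block called 0 of the 18 probes. Signal over background limits CD74 and the dimmest SLA-DRA and SLA-DQA1 probes, and class I rests on B2M.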
